A study of Arabidopsis thaliana with 6 samples.

Results

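Transcripts of kinesin motor proteins were compared between whole seedlings of the pkl mutant and of the wild type (WT) of Arabidopsis thaliana, both 14 days old and grown in long days, with 3 libraries per genotype. The gene mutated in pkl, PICKLE, codes for a CHD3-type remodeler of chromatin, and the labels give neither the pkl allele nor the strandedness of the libraries. The kinesins were taken as 60 genes named by identifier, and 24 of them (40%) had a row in the authors' deposited table of 2896 loci. Every locus in that table was lower in pkl and had passed the authors' test, so the presence of a row and its direction are what chose these 24 and are not findings. Of the 19554 tests implied by the p-values and q-values in the authors' deposited table, 14.8% were called lower in pkl. The 60 genes were proposed with results of these data in view, so nothing is read from the gap between 40% and 14.8%. The other 36 kinesins had no row and their level and direction were not analysed here. Whether each of these 36 was among the tests is not known.

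Expression was in FPKM (fragments scaled to transcript length and to all mapped fragments). Each genotype had a single value per locus, made from its 3 libraries together. No spread between libraries could be given, the depth of each library is unknown, and no test of the kinesins was made. The q-values quoted are those of the authors' deposited table. The labels do not say whether replicates were separate cultures. In whole seedlings, fewer cells of a type and less RNA per cell cannot be told apart. PKL itself, the mutated gene, had 6.79 FPKM in pkl and 19.2 FPKM in WT.

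Kinesins are motors that hydrolyse ATP to move along microtubules or to take microtubules apart. Plants have an unusually large set of them, and many work in cell division, where they build the spindle and then the phragmoplast, the microtubule array that lays down the new cell wall between daughter cells. Others act between divisions, in cell wall deposition, the branching of leaf hairs, and the placing of chloroplasts and other organelles. Most kinesins carry the motor near the N-terminal end and walk to the plus end of the microtubule, while the kinesin-14 family holds the minus-end-directed motors, often with the motor at or near the C-terminal end.

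The motor is marked by its ATP-binding loop, and the coding bases of this loop are shown for 5 of the 24 listed kinesins because they differ in where the motor lies and in the role of the protein. Each line gives 36 bases of the spliced coding sequence, 5′ to 3′, read from the RefSeq annotation of the TAIR10.1 genome, with the 24 bases that encode the loop in capitals.
HIK: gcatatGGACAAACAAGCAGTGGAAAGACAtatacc
KINESIN-12B: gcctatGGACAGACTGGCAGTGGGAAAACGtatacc
KAC2: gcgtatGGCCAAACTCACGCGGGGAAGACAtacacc
ATK1: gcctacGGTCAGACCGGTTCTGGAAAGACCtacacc
AT1G73860: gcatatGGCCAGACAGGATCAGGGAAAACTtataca
The loop began at codon 117 of 974 in HIK, a phragmoplast motor, and at codon 170 of 1313 in KINESIN-12B. In the kinesin-14 genes it began at codon 516 of 793 in ATK1 and at codon 593 of 1025 in AT1G73860, past the middle of the protein. KAC2 is also a kinesin-14, but its loop began at codon 219 of 1274, near the N-terminal end.

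The listed kinesins of the phragmoplast and of the division plane fell by similar, small amounts. Of the 7 genes in this class, 5 had a row, with folds between 1.27 and 1.35. The 14.8% of all tests called lower stands beside this count and those of the other role classes below. No difference between them was tested. HIK (HINKEL, AT1G18370), a kinesin-7 required for cytokinesis, had 4.63 FPKM in pkl and 5.86 FPKM in WT, and was 1.27-fold lower in pkl. Its locus lies on chromosome 1, positions 6319650 to 6324222 of TAIR10, on the minus strand. HIK was the highest of the 5 in both genotypes.

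POK1 and POK2, a pair of kinesin-12 motors that guide the phragmoplast to the division site, were the lowest of the class. POK1 (AT3G17360) had 1.39 FPKM in pkl and 1.83 FPKM in WT. POK2 (AT3G19050) had 1.66 FPKM in pkl and 2.25 FPKM in WT, 1.35-fold lower. With a pseudocount of 1 FPKM the log2 fold change was -0.24 in place of -0.40 for POK1 and -0.29 in place of -0.44 for POK2, and POK2 then lay below KINESIN-12B (-0.31) and AT4G14330 (-0.30) in size. The order of folds within the class therefore depends on that setting.

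KINESIN-12B (AT3G23670, also PAKRP1L) links the plus ends of antiparallel microtubules at the phragmoplast midline together with its relative PAKRP1. It stood at 2.33 FPKM in pkl and 3.12 FPKM in WT, 1.34-fold lower in pkl. AT4G14330, a kinesin-10 of this class, had 2.68 FPKM in pkl and 3.53 FPKM in WT, 1.32-fold lower. The q-values of the 5 genes in the authors' deposited table ran from 0.0012 for POK2 to 0.0184 for HIK. Summed over the 5, the level was 12.7 FPKM in pkl and 16.6 FPKM in WT. TES, the relative of HIK that acts in cytokinesis after male meiosis, and PAKRP1 had no row.

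Of the 7 kinesins of the spindle, 4 had a row, with folds between 1.27 and 1.52. ATK1 (AT4G21270), a minus-end-directed kinesin-14 needed for the spindle of male meiosis, had 2.36 FPKM in pkl and 3.59 FPKM in WT, 1.52-fold lower. ATK5 (AT4G05190), its closest relative and a motor of spindle midzones, had 3.94 FPKM in pkl and 5.30 FPKM in WT, 1.34-fold lower. The deposited levels and folds of the pair thus differed, although their coding sequences were 82.4% identical over 99.7% of the length. With no spread between libraries that difference was not tested, and the locus of ATK5 overlaps AT4G05200.

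The other listed spindle kinesins were kinesin-5 motors, which push apart antiparallel microtubules. AT2G28620 stood at 3.37 FPKM in pkl and 4.72 FPKM in WT, 1.40-fold lower. AT2G37420 stood at 2.31 FPKM in pkl and 2.94 FPKM in WT, 1.27-fold lower. The authors' deposited table gives it a q-value of 0.043, the highest of the 24 and so the nearest to the threshold of 0.05. No member just outside that threshold can be shown, since only loci that passed were in the table. The 4 spindle genes summed to 11.98 FPKM in pkl and 16.6 FPKM in WT. AT2G36200 and AT3G45850 of kinesin-5, and the kinesin-12 AT3G44050, had no row.

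Interphase kinesins were listed in 3 of 10 cases. AT1G21730, a kinesin-7, was the most abundant of them, with 9.79 FPKM in pkl and 13.7 FPKM in WT, 1.40-fold lower. KAC2 (AT5G65460), which is needed for chloroplast movement along actin, had 6.07 FPKM in pkl and 7.38 FPKM in WT. Its 1.22-fold difference was the smallest of all 24. KP1 (AT3G44730), a kinesin-14, had 1.49 FPKM in pkl and 2.02 FPKM in WT, 1.36-fold lower, with a log2 fold change of -0.44 that was -0.28 with a pseudocount of 1 FPKM. KAC1, the closest relative of KAC2, had no row, and neither did FRA1, which acts in cell wall deposition, ZWI, which acts in leaf hair branching, KINESIN-13A, MRH2, ARK2 or AT4G39050.

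**Figure D1:**
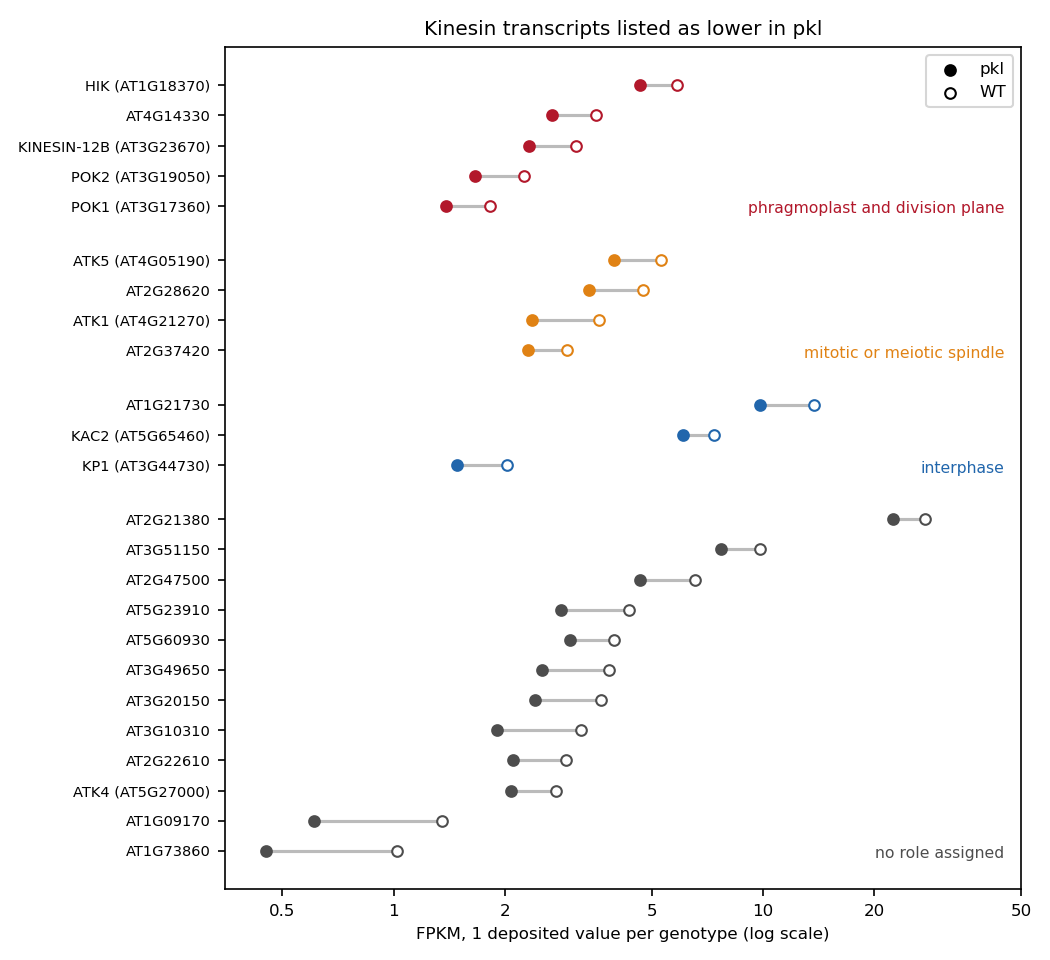
FPKM of the 24 listed kinesins on a log axis, filled circles for pkl and open circles for WT, each the 1 deposited value of the genotype with no error bar, grouped and coloured by role. The distance between the pkl and WT values is widest for AT1G09170 and AT1G73860 at the bottom, which are low and more than 2-fold apart, and narrowest for KAC2 and AT2G21380.

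The 12 listed kinesins with no role assigned held both the lowest and the highest levels of the 24. AT1G73860, a kinesin-14, had 0.45 FPKM in pkl and 1.02 FPKM in WT, 2.27-fold lower. AT1G09170, a kinesin-14 annotated with a calponin homology domain (a fold that can bind actin), had 0.61 FPKM in pkl and 1.35 FPKM in WT, 2.21-fold lower. These were the only 2 of the 24 that differed by at least 2-fold, and they had the lowest levels of the 24 in each genotype. With a pseudocount of 1 FPKM the log2 fold change was -0.48 in place of -1.18 for AT1G73860, and -0.54 in place of -1.14 for AT1G09170.

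AT2G21380, a kinesin-7, was at the other end of the levels, with 22.5 FPKM in pkl and 27.4 FPKM in WT. It was the most abundant listed kinesin and differed by only 1.22-fold. AT3G51150, another kinesin-7, had 7.71 FPKM in pkl and 9.80 FPKM in WT, 1.27-fold lower. Both lay above 7 FPKM in each genotype, over each of the 9 listed kinesins of the phragmoplast and spindle classes.

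AT3G10310, a further kinesin-14 with an annotated calponin homology domain, had 1.90 FPKM in pkl and 3.21 FPKM in WT, 1.69-fold lower. AT2G47500, with the same annotation, had 4.65 FPKM in pkl and 6.54 FPKM in WT, 1.41-fold lower. Of the 5 kinesins whose annotated product names this domain, 3 had a row, beside 14.8% of all tests called lower. All 3 carried the smallest q-value in the authors' deposited table, 0.000338, as did 8 of the 24 listed kinesins and 5 of the 10 listed kinesin-14 genes. Loci outside the kinesins, PKL among them, share this lowest value. The share of all tests that reached it was not computed, so nothing is read from these counts. AT2G22610, a kinesin-14 annotated with a di-glucose binding domain, had 2.1005 FPKM in pkl and 2.93 FPKM in WT. ATK4 (AT5G27000), another kinesin-14, had 2.08 FPKM in pkl and 2.76 FPKM in WT.

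The remaining 4 of this class came from other subfamilies. AT5G23910, a kinesin-10, had 2.84 FPKM in pkl and 4.34 FPKM in WT, 1.53-fold lower. AT3G49650, a kinesin-8, had 2.52 FPKM in pkl and 3.84 FPKM in WT, 1.52-fold lower. These folds were close to that of ATK1. AT3G20150, a kinesin-12, had 2.41 FPKM in pkl and 3.64 FPKM in WT, 1.51-fold lower. AT5G60930, a kinesin-4, had 3.003 FPKM in pkl and 3.95 FPKM in WT, 1.32-fold lower.

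By subfamily, the listed genes were 10 of 21 in kinesin-14, 4 of 6 in kinesin-12, 4 of 15 in kinesin-7, 2 of 4 in kinesin-5, 2 of 3 in kinesin-10, 1 of 3 in kinesin-4 and 1 of 2 in kinesin-8. No row was present for the 2 kinesin-13 genes, which depolymerise microtubules, the 3 armadillo-repeat (ARK) kinesins or the only kinesin-1 gene. Within kinesin-14, the loop of the motor lay past 40% of the protein in 16 genes, of which 9 had a row. It lay before that point in 5 genes, of which KAC2 alone had a row. The split at 40% was chosen after the positions and the rows were seen, so nothing is read from it. Of all tests, 14.8% were called lower, and no difference between subfamilies or loop positions was tested.

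**Figure D2:**
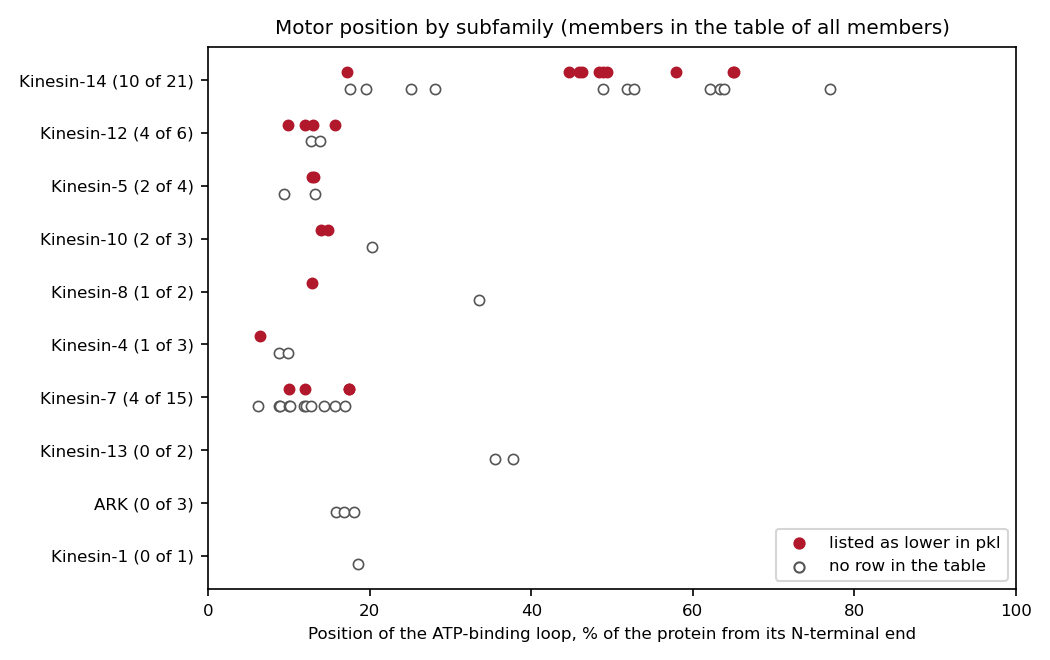
Position of the ATP-binding loop along each of the 60 kinesin proteins, in percent of the length from the N-terminal end, by subfamily, with filled circles for the 24 genes listed as lower in pkl and open circles for the 36 with no row. Kinesin-14 alone has loops past 40%, and 9 of those 16 genes are listed, beside 14.8% of all tests called lower.

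Against the rest of the table, the listed kinesins were weakly expressed and differed little. Their median fold was 1.36 (median log2 fold change -0.44), against 1.52 (-0.60) over all 2896 loci. Every locus here had passed the authors' test, so both medians are shaped by that choice. The gap between them is a description and was not tested. A fold below 1.5 was found in 17 of the 24, a fold between 1.5 and 2 in 5, and a fold of at least 2 in 2. Of the 2896 loci in the table, 52.2% differed by at least 1.5-fold and 25.8% by at least 2-fold, which are 7.74% and 3.83% of all 19554 tests. In WT, 23 of the 24 lay below the table's median level of 16.8 FPKM, and 22 lay under 10 FPKM, as did 37.1% of all loci in the table. The exception to the first count was AT2G21380.

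Kinesin genes are long, and a longer transcript yields more fragments at the same FPKM. The median coding length was 3125 bases in the 24 listed kinesins and 2988 bases in the 36 with no row, against 1119 bases over the protein-coding genes in the table. POK2 and POK1 had the longest coding sequences of the 60, at 8316 and 6228 bases. The part of length in which kinesins passed the authors' test was not tested. Across the 24, log2 fold change and log2 WT level had a Pearson correlation of 0.59 and a Spearman correlation of 0.37, with larger folds at lower levels. The WT level enters both axes and all 24 points come from the same libraries. All 24 also passed the authors' test, which a weakly expressed locus passes more readily at a large fold. That choice can shape the relation, so no conclusion is drawn from it.

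**Figure D3:**
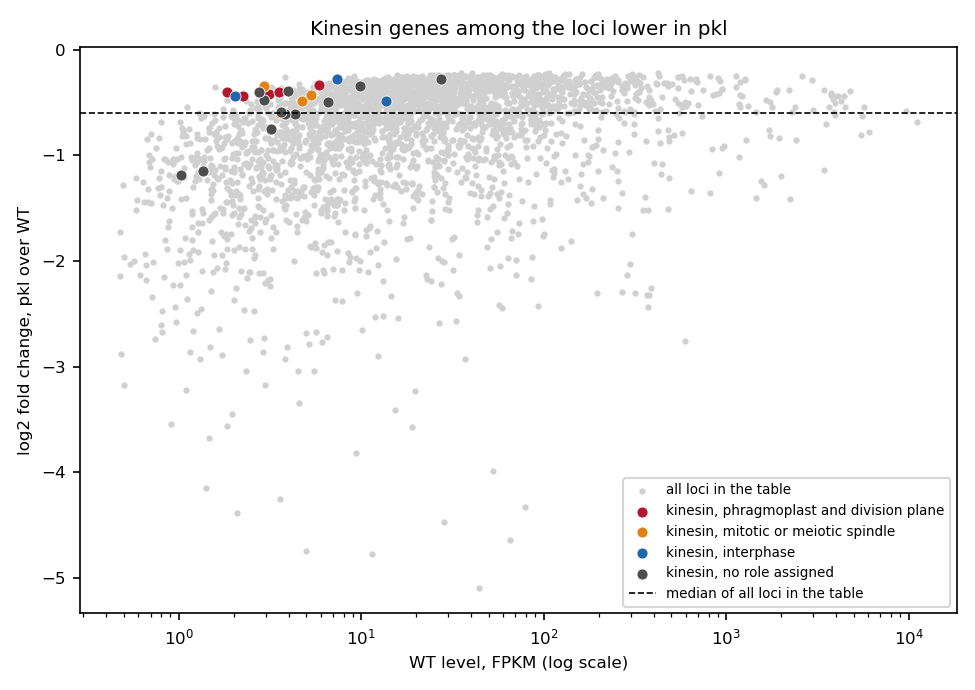
Log2 fold change of pkl over WT against the WT level in FPKM on a log axis for all 2896 loci in the table (grey) and the 24 kinesins (coloured by role), with the table's median at -0.60 as a dashed line. The kinesins lie at the upper left, at low levels and small folds, and AT1G73860 and AT1G09170 lie lowest among them.

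Each of the 24 loci held 1 gene identifier, and none had a near-identical coding copy, taken as at least 95% identity over at least 80% of the coding sequence. KAC1 and KAC2, for example, were 83.9% identical over 94.6% of the coding sequence of KAC2. The loci of AT3G10310, AT2G28620, AT2G22610, POK2 and ATK5 overlapped another annotated gene. For AT2G28620 and POK2 the overlap is on the same strand, so strand could not separate its reads. For AT3G10310, AT2G22610 and ATK5 it is on the opposite strand. Without the strandedness of the libraries, reads from these overlaps cannot be told apart either.

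Other genes of cell division were also in the table. The share of all tests called lower, 14.8%, stands beside each share of a list that follows, and no difference between them was tested. That share counts tested loci, while the list shares count all named genes. A gene with no row may not have been among the tests, so the shares are not on the same base. Of 31 genes of G2 and mitosis, 9 were listed (29.0%), at 8 loci, with folds between 1.25 and 1.48 and a median fold of 1.37. CYCB1;2, a mitotic cyclin, had 8.73 FPKM in pkl and 12.2 FPKM in WT. CYCB2;4, another mitotic cyclin, had 3.62 FPKM in pkl and 5.05 FPKM in WT. CYCB2;3 and CYCA2;4 were 1.37-fold and 1.48-fold lower, but each shares its locus with a neighbouring gene. AUR1, an Aurora kinase of the spindle, had 7.997 FPKM in pkl and 10.9 FPKM in WT. CDKB2;2 had 7.18 FPKM in pkl and 9.54 FPKM in WT, 1.33-fold lower. CYCB1;1, CDKB2;1 and the cytokinetic syntaxin gene KNOLLE had no row. Of these 8 loci, 0 reached 1.5-fold.

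Among 26 partners of the phragmoplast and division site, 6 had a row (23.1%), with a median fold of 1.35. MAP65-3, which bundles phragmoplast microtubules and is a target of the kinase cascade that HIK activates, had 3.79 FPKM in pkl and 5.76 FPKM in WT, 1.52-fold lower. TAN1, which works with POK1 and POK2 and marks the division site, had 3.24 FPKM in pkl and 4.64 FPKM in WT, 1.43-fold lower. PHGAP2, another protein of the division site, was 1.22-fold lower. ANP1, a kinase at the head of that cascade, was 2.73-fold lower at a locus that also holds AT1G08990. SNAP33, a membrane fusion protein of the cell plate, was 1.27-fold lower at a locus shared with AT5G61228. The other kinases of the cascade in the list, ANP2, ANP3, MKK6 and MPK4, had no row.

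Of 27 genes of the entry into the cell cycle and of DNA replication, 3 had a row, a share of 11.1% beside the 14.8% of all tests. CYCD6;1 was 1.74-fold lower, CYCD1;1 1.66-fold lower and CDC6 1.33-fold lower, while none of the MCM2 to MCM7 genes had a row. Of 17 tubulins, 2 were listed (11.8%): TUB8 was 1.49-fold lower and TUB7 1.29-fold lower. Of 15 other microtubule-associated proteins, 1 was listed (6.67%): CMU1, a kinesin light chain-related protein that steadies cortical microtubules, had 85.9 FPKM in pkl and 100.9 FPKM in WT. The difference between these shares and that of the kinesins was not tested.

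Lists tied to the interphase kinesins varied. Of 9 genes of chloroplast movement, the process of KAC2, 5 were listed (55.6%) with a median fold of 1.46. CHUP1, which anchors chloroplasts to actin, was 1.63-fold lower at a locus shared with AT3G25680, THRUMIN1 was 1.59-fold lower and WEB1 1.46-fold lower. JAC1 was 1.39-fold lower at a locus it shares with AT1G75110, and PMI1 was 1.28-fold lower. Of 8 cellulose synthesis genes, 3 were listed (37.5%), CESA8, CESA4 and CESA1, with folds of 1.44, 1.33 and 1.23, of which CESA4 shares its locus with AT5G44020. Of 10 leaf hair genes, none had a row.

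Markers of tissues that differ in their share of dividing cells were in the table as well. Of 7 genes of the stomatal lineage, in whose early cells divisions are frequent, 4 were listed (57.1%) with a summed level of 17.9 FPKM in pkl and 37.2 FPKM in WT. SPCH, which starts that lineage, had 2.59 FPKM in pkl and 5.81 FPKM in WT. FAMA, which ends its divisions, had 7.31 FPKM in pkl and 19.1 FPKM in WT, and EPF2 and BASL were 1.53-fold and 1.51-fold lower. Of 9 markers of the shoot meristem and organ growth, CUC2 and ANT were listed (22.2%), 2.65-fold and 1.27-fold lower, with CUC2 under 1 FPKM in each genotype. STM, WUS and CLV3 had no row.

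Of 11 root markers, 6 were listed (54.5%), with a summed level of 102.5 FPKM in pkl and 159.3 FPKM in WT. IRT1 was 2.04-fold lower, CASP1 1.94-fold, COBL9 1.61-fold and CASP2, which shares its locus with AT3G11540, 1.39-fold lower, and the root meristem genes PLT1, PLT2 and WOX5 had no row. The part of the stomatal, meristem and root markers in the kinesin values was not tested. RBCS1A, the marker of leaf tissue in these lists, had no row.

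**Figure D4:**
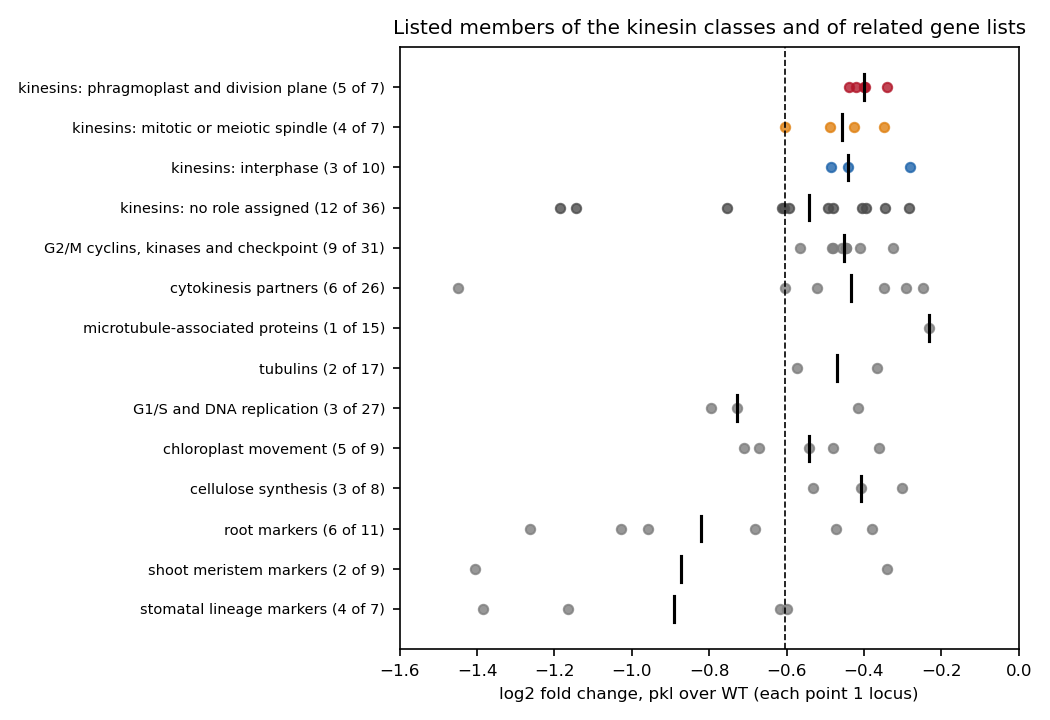
Log2 fold change of pkl over WT for each listed locus of the 4 kinesin classes (coloured) and of 10 related gene lists (grey), with the number of genes in the table of all genes in the list in brackets, the class median as a short black line and the median of all 2896 loci as a dashed line. The medians of the phragmoplast, spindle and interphase kinesins and of the G2/M, cytokinesis and cellulose synthesis lists lie between -0.46 and -0.40, to the right of the dashed line. Those of the kinesins with no role assigned, tubulins, chloroplast movement and microtubule-associated proteins also lie to its right. Those of the G1/S, root, shoot meristem and stomatal lists lie to its left.

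Genes switched on at mitosis in plants often carry the mitosis-specific activator element, bound by three-repeat MYB factors, with the core AACGG. This core was searched on both strands from 250 bases before to 50 bases after the annotated start of each gene. It was present in 13 of the 24 listed kinesins (54.2%), in 17 of the 36 with no row (47.2%), and in 24.7% of all 27443 windows of protein-coding genes. Genes in the table as a whole held it in 24.4% of cases. By role, the listed kinesins held it in 4 of 5 phragmoplast genes, 1 of 4 spindle genes, 0 of 3 interphase genes and 8 of 12 genes with no role assigned. Kinesins with no row held it in 2 of 2 phragmoplast genes, 0 of 3 spindle genes, 5 of 7 interphase genes and 10 of 24 genes with no role assigned. Over the whole interphase class 5 of 10 genes thus held the core, as did 30 of all 60 kinesins. The listed G2/M genes held it in 5 of 9 cases (55.6%), and the whole G2/M list in 20 of 31 (64.5%).

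The 150 bases before the start are shown for 6 listed kinesins, 5′ to 3′ on the strand of the gene, to set genes with several matches beside genes with few or none. Capitals mark the core on either strand, so CCGTT is a match on the opposite strand. They were read from the RefSeq TAIR10.1 genome, and in each of the 2740 comparable loci with a single gene the deposited locus overlapped that gene's annotation.
HIK, chr1:6324379-6324528, minus strand: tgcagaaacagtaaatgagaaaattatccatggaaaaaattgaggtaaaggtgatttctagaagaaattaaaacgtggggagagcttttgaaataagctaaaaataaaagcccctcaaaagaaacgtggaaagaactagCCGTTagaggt
POK2, chr3:6577574-6577723, plus strand: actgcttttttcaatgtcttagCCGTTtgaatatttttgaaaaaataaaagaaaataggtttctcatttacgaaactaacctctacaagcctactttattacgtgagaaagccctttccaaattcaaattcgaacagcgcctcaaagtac
KINESIN-12B, chr3:8518986-8519135, plus strand: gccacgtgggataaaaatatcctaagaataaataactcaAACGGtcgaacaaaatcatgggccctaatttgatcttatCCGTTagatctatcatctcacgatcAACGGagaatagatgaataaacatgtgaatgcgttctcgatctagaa
AT2G28620, chr2:12270764-12270913, minus strand: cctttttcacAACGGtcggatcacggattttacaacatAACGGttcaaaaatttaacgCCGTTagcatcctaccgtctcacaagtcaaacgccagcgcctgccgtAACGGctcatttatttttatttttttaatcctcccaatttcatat
AT1G09170, chr1:2962547-2962696, minus strand: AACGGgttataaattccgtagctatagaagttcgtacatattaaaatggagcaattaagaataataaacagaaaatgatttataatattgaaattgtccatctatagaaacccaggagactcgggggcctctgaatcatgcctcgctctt
AT1G73860, chr1:27776884-27777033, minus strand: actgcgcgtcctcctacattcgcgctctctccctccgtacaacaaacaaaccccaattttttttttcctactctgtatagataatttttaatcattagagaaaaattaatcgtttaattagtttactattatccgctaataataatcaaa
AT2G28620 had 4 matches in this stretch and KINESIN-12B had 3, while AT1G73860, the listed kinesin with the largest fold, had 0. The stretches of POK2 and AT2G28620 overlap annotated non-coding genes, AT3G03795 and AT2G08280. KINESIN-12B, with 4 matches in the whole window, was 1.34-fold lower. AT1G73860, with none and with the lowest level of the 24, was 2.27-fold lower. The relation between matches and folds over the 24 was not tested. A longer form is the core followed by C or T at each of the next 2 bases and then A. It was found in HIK, POK2 and AT4G14330 among the 24 (12.5%). Of the 36 kinesins with no row, 3 held it (8.33%), as did 3.11% of all windows. A match in these letters is a description of the sequence and does not show that a factor binds there.

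**Figure D5:**
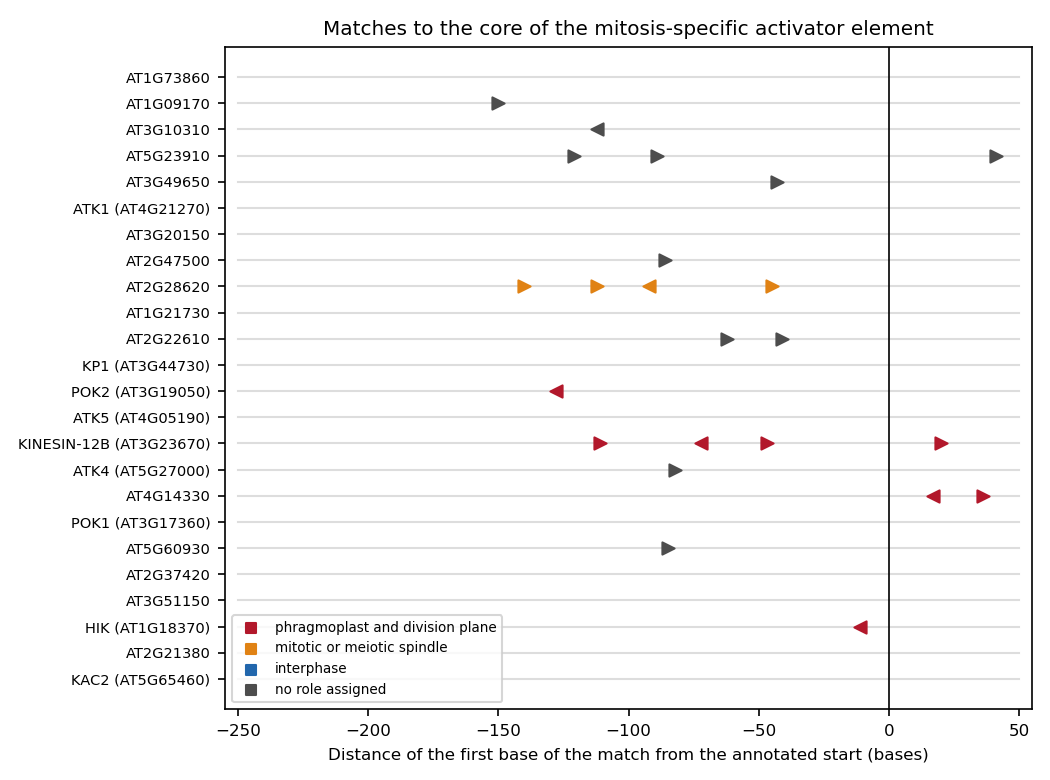
Matches to the core of the mitosis-specific activator element in the 24 listed kinesins, ordered from the largest fold at the top, plotted by the distance in bases of the leftmost base of the match from the annotated start, with right-pointing marks for the strand of the gene and left-pointing marks for the opposite strand. The 13 genes with a match carry 1 to 4 of them, mostly within 150 bases before the start. The 3 listed interphase genes carry none, while 5 of the 7 interphase genes with no row, not plotted here, carry the core.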

How the data were processed

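Reads had been processed with TopHat, Cufflinks 2.1.1 and Cuffdiff 2.1.1 on TAIR10, per the submitters' processing notes. The authors deposited FPKM values, 1 per genotype, with a log2 fold change, a test statistic (a signed score, not used), and p-values and q-values adjusted over all of their tests, per the file headers. Fold and log2 fold change were recomputed from the FPKM values and matched the deposited log2 values to within 1.2e-05. The number of tests, 19554, was the whole number between 2896 and 38999 that made every Benjamini-Hochberg rank whole (to within 0.017, against 0.311 for the next best), and was recovered in 10 of 10 tables in simulated data. Depth per library is unknown.

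The 60 kinesins, their role classes and the gene lists were chosen with earlier results of these data known. Role classes follow general knowledge of the family. Every listed kinesin is named, with up to 5 members of each other list by fold, the marker CDKB2;2 and PKL. For 1 root marker that this rule would name, the result is not reported here. No set test was run. Of 3033 identifiers in the table, 3024 had an entry in RefSeq TAIR10.1, and starts are counted from 1. Coding copies were sought with BLAST+ 2.17.0, and other steps used Python 3.11.15, pandas 2.3.3 and Biopython 1.88. The ATP-binding loop was located by its pattern in the longest coding sequence of each gene. Alternatives were a stricter q, minimum folds and levels, pseudocounts, loci of 1 gene, a recentring, and other motif windows.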

Additional observations from a re-analysis of the deposited data

How the results depend on the processing

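The count of listed kinesins depends on the size of fold asked for. Of the 24, 15 had a q-value under 0.01 in the authors' deposited table, 7 were at least 1.5-fold lower and 2 were at least 2-fold lower. All loci in the table numbered 2145, 1513 and 748 under the same settings, which are 11%, 7.74% and 3.83% of all 19554 tests. No difference from these shares was tested. At q under 0.01 the phragmoplast class held 2 genes, the spindle class 2 and the interphase class 1. At 1.5-fold these classes held 0, 1 and 0 genes and the class with no role assigned held 6. At 2-fold they held 0, 0 and 0, and that class held 2. The G2/M list held 5 loci in place of 8 with loci of 1 gene alone and 0 at 1.5-fold. Chloroplast movement held 3 in place of 5 with loci of 1 gene alone, 2 at 1.5-fold and 0 at 2-fold. At 1.5-fold cytokinesis partners numbered 2, shoot meristem markers 1, and cellulose synthesis, tubulins and microtubule-associated proteins 0. At 2-fold root markers numbered 2, stomatal markers 2, cytokinesis partners 1, shoot meristem markers 1 and the other lists 0. At q under 0.01 stomatal markers numbered 2, G1/S genes 1, and shoot meristem markers and microtubule-associated proteins 0, and with at least 1 FPKM in WT 1 shoot meristem marker was left.

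With a pseudocount of 1 FPKM the median log2 fold change of the 24 kinesins was -0.33, and that of the shoot meristem markers moved to -0.39 from -0.87. Since every locus in the table was lower, subtracting the table's median turns the sign of any locus with a smaller fold. This gave positive values for 19 kinesins: 0.00013 for ATK1, 0.00983 for AT3G20150, 0.11 for AT2G47500, 0.12 for AT2G28620, AT1G21730 and AT2G22610, 0.16 for KP1, 0.17 for POK2, 0.18 for ATK5 and KINESIN-12B, 0.20 for ATK4 and AT4G14330, 0.21 for POK1 and AT5G60930, 0.25 for AT2G37420, 0.26 for AT3G51150 and HIK, and 0.32 for AT2G21380 and KAC2. The motif count of 13 became 12 in the 250 bases before the start and 3 with the longer form. No paired analysis was possible because pkl and WT each have a single FPKM per locus, and leaving out a replicate could not be run for the same reason.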

Other observations

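Some other motor and microtubule genes, chosen after their values were seen, were lower in pkl. Outside the 60 kinesins, 9 genes carried the word kinesin in their annotated product or a kinesin motor note, and 1 of them was in the table: AT4G26660, with 3.49 FPKM in pkl and 5.08 FPKM in WT. AT5G15510, of the family of the spindle protein TPX2, had 2.73 FPKM in pkl and 4.14 FPKM in WT, a fold of 1.52 like that of ATK1. MAP18, which destabilises cortical microtubules, had 47.0 FPKM in pkl and 95.5 FPKM in WT, and MAP70-5, known from the patterning of xylem walls, was 2.33-fold lower in pkl. Of 78 genes with myosin in the product, 6 were in the table, beside 14.8% of all tests, and among them XIG and ATM1, actin-based motors, were 1.58-fold and 1.23-fold lower in pkl. AT4G39320 had 1.47 FPKM in pkl and 3.80 FPKM in WT. These 4 microtubule genes, AT5G15510, MAP18, MAP70-5 and AT4G39320, came from 25 genes whose product names microtubules or TPX2 and that were in none of the lists. The 14.8% of all tests stands beside this count and beside the 1 of 9 genes above, and no difference was tested.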
